A study of Mus musculus with 2 samples.

Results

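Lhx2 and Lhx5 are 2 of the 27998 genes measured in single cells of mouse eye organoids, and they were taken by their symbols, which each stood on 1 line of both gene tables. The organoids were grown from embryonic stem cells with a heterozygous GFP knock-in at the Rax locus, a genotype that the labels give for both libraries, and no other line was analysed here. Cells were collected on culture day 4 and culture day 6, before and soon after the optic vesicle bulges out, and run on the 10x Genomics 3′ v2 kit as 1 library per day. Each library pooled 3 biological experiments that cannot be told apart in the files, and all came from 1 stem cell line. A difference between days is therefore also a difference between 2 libraries, and no test between them was possible.

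Lhx2 and Lhx5 belong to the LIM homeobox family, transcription factors in which a DNA-binding homeodomain is joined to a pair of LIM domains that bind partner proteins such as Ldb1. Lhx2 is needed for the eye field to become an optic vesicle and optic cup, and in the developing cortex it sets the border of the hem. Lhx5 is an early gene of the anterior neural plate, where in zebrafish it is known to switch on secreted Wnt antagonists, and later it marks parts of the forebrain including the hem and diencephalon.

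In GENCODE M21 on build GRCm38, the build of the deposited counts (mm10), Lhx2 (ENSMUSG00000000247) lies on the plus strand at chr2:38339281-38369733 and Lhx5 (ENSMUSG00000029595) on the plus strand at chr5:120431699-120441223. The homeobox of each gene is shown because it encodes the DNA-binding part of both proteins. In both genes it is split over a pair of exons. In Lhx2 it takes chr2:38359966-38360103 in exon 4 and chr2:38368842-38368883 in exon 5 of 5, and in Lhx5 chr5:120435491-120435628 in exon 3 and chr5:120436308-120436349 in exon 4 of 5. Capitals mark the bases that differ between the genes, in a comparison without gaps.
Lhx2 homeobox: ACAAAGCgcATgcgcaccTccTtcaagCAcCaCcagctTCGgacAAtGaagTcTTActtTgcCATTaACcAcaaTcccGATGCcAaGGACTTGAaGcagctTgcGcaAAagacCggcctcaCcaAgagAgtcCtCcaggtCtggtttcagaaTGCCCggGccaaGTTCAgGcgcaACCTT
Lhx5 homeobox: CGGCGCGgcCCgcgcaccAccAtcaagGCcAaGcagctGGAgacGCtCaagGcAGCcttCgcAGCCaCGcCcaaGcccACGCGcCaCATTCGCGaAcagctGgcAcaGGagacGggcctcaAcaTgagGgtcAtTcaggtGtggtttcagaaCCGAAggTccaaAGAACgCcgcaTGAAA
Of the 180 bases, 77 differed, so 57.2% were identical, and 45 of the 60 codons held at least 1 difference. The longest run of identical bases in the complete coding sequences was 17 bases. The 3′ ends from which this kit counts were not compared here.

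After filtering, the day 4 library held 8147 cells with a median of 11216 unique molecular identifiers (UMIs, each 1 captured RNA molecule) and the day 6 library 6641 cells with a median of 12514. The libraries shared 78 kept barcodes. Levels are given as CPM, a gene's UMIs on the per-million scale of the summed cells, and every 95% interval covers counting error only, not the spread between organoids. Shares of cells with a UMI were taken after each cell had been thinned to 5000 UMIs, unless stated. Calls rest on size: higher or lower means a difference of at least 1.5-fold with an interval of the ratio that left out 1. Of the naive pluripotent markers that could be judged, 5 of 5 were lower on day 6, as were 5 of 6 primed epiblast markers, whereas 3 of 3 endoderm markers were higher, beside 13.3% of all judged genes called higher and 6.28% lower. Judged genes had a mean of at least 10 CPM over the days. Nanog, Fgf5 and Pim2 passed that floor through day 4 alone, and Dab2 and Lama1 through day 6 alone, so it set their direction. Without the naive pluripotent-like, endoderm-like and neural crest-like clusters described further on, the day 6 over day 4 ratio was 25.0 for Lhx2 and 1.27 for Lhx5. The primed epiblast-like cluster, with 6732 of the day 4 cells, was kept. A smaller number of expressing cells and less RNA per cell cannot be told apart in summed levels.

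Lhx2 was far higher in the day 6 library, whereas Lhx5 differed little between the libraries. Lhx2 stood at 4.47 CPM on day 4 (441 UMIs, interval 4.06 to 4.91) and at 112 CPM on day 6 (9873 UMIs, 110 to 115). Lhx5 stood at 12.4 CPM on day 4 (1223 UMIs, 11.7 to 13.1) and at 16.1 CPM on day 6 (1412 UMIs, 15.3 to 16.9). The ratio of day 6 over day 4 was 25.1 for Lhx2 (22.9 to 27.7) and 1.297 for Lhx5 (1.201 to 1.401), so that of both members 1 was called higher and none lower. Of the 6699 genes with at least 10 CPM as the mean of the days, 13.3% were called higher by the same rule and 6.28% lower. Lhx2 was under 10 CPM on day 4 and passed that floor through day 6, so it could not have been called lower.

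The cells behind these levels differed in the same way. Cells with an Lhx2 UMI made up 1.98% of the day 4 library (1.69 to 2.31) and 38.0% of the day 6 library (36.8 to 39.2). For Lhx5 the shares were 5.06% (4.59 to 5.56) and 6.75% (6.15 to 7.38). Without thinning they were 3.73% and 59.4% for Lhx2 and 10.5% and 13.9% for Lhx5. Among cells with Lhx2, 73.0% held a single UMI on day 4 against 35.1% on day 6, and the highest count in 1 cell was 6 on day 4 and 16 on day 6. For Lhx5 the single-UMI share was 71.4% and then 67.5%, with a highest count of 7 on both days. Detection of Lhx2 was thus broader and deeper on day 6, while the distribution of Lhx5 over cells was close on the 2 days.

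The near-equal Lhx5 levels of the whole libraries held opposite differences in different cells. Among cells with a UMI of Six3, a factor of the anterior neural plate and eye field, Lhx5 went from 37.9 CPM in the day 4 library to 17.3 CPM in the day 6 library, and the ratio was 0.456 (0.411 to 0.505). Among cells without Six3 it went from 6.72 to 14.7 CPM, with a ratio of 2.19 (1.95 to 2.47). The same split appeared with Rax, the transcription factor that specifies the eye field: Lhx5 went from 42.8 to 14.4 CPM in cells with Rax (ratio 0.336, 0.282 to 0.401) and from 11.2 to 18.0 CPM in cells without it (1.61, 1.46 to 1.77). In cells with Six6, an eye field and retina factor, the levels were 17.1 and 7.19 CPM, and in cells with Shisa2, which encodes an inhibitor of Wnt and FGF receptor maturation, 24.2 and 13.3 CPM. Lhx5 was therefore lower on day 6 in cells with Six3, Rax, Six6 or Shisa2 and higher in cells without the gene in question. Other genes did not show both sides of this. With Pax6, a factor required for eye formation, Lhx5 went from 36.8 to 18.0 CPM, but without it from 11.3 to 9.31 CPM. With Hesx1, an early repressor of the anterior neural plate, it went from 25.9 to 33.8 CPM, and with Fezf2, a forebrain factor, from 44.0 to 32.2 CPM, both within the size limit. Lhx2 was higher on day 6 in all of these classes, by 3.98-fold in cells with Six6, 4.98-fold with Fezf2, 6.26-fold with Rax and 10.7-fold with Six3. The classes differed in size between the libraries. Six3 was found in 1252 day 4 and 3354 day 6 cells, Rax in 272 and 3322, and Six6 in 85 and 2802. Whether a class held the same kinds of cell on both days was not tested.

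On day 4 both genes were high in the same kinds of cell. Lhx5 was at 37.9 CPM in the 1252 cells with Six3 against 6.72 CPM in the others, 5.64-fold higher (5.03 to 6.32). In the 2401 cells with Hesx1 it was at 25.9 CPM against 5.69 CPM, 4.55-fold higher (4.03 to 5.16). Cells with Fezf2 and cells with Rax had 4.15-fold and 3.83-fold more Lhx5 than the rest. These are genes of the anterior neural plate, and cells with the pluripotency factor Pou5f1 went the other way, at 11.8 CPM against 21.4 CPM. Lhx2 was at 42.4 CPM in the 85 cells with Six6 against 4.04 CPM elsewhere, 10.5-fold higher (7.58 to 14.2), and at 31.3 CPM in the 329 cells with Pax6 against 3.22 CPM, 9.74-fold higher (7.90 to 11.9). The ratio for Lhx5 in cells with Six6 was 1.39 (0.833 to 2.18), an interval that holds 1. Cells with a UMI of a gene were deeper than the rest, with a median of 13626.5 against 10745 UMIs for Six3.

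Lhx5 on day 4 also followed the number of UMIs of these genes. In cells with 0, 1, 2 and at least 3 Six3 UMIs it was at 6.72, 26.1, 42.0 and 62.1 CPM. In cells with 0, 1, 2 and at least 3 Hesx1 UMIs it was at 5.69, 17.4, 25.4 and 40.9 CPM. The counting intervals of neighbouring steps did not overlap. Against the other day 4 cells, the 5 genes with the highest ratio in cells with Lhx5 were Six3 (5.41-fold), Lhx2 (4.88-fold), Ermn (4.40-fold), Fezf2 (4.20-fold) and the Wnt antagonist Frzb (3.53-fold). The 5 lowest were Tdgf1 (0.0798), the Nodal co-receptor of pluripotent cells, Spp1 (0.119), Dnmt3l (0.1296), Hspb1 (0.1502) and Fbxo15 (0.154). Of 6709 genes in that comparison, 1.21% were called higher and 3.70% lower. Lhx2, Ermn, Fezf2 and Frzb reached the 10 CPM floor only in the cells with Lhx5. Tdgf1, Spp1, Dnmt3l and Fbxo15 reached it only in the cells without Lhx5, so the floor set the direction of these calls.

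**Figure D1:**
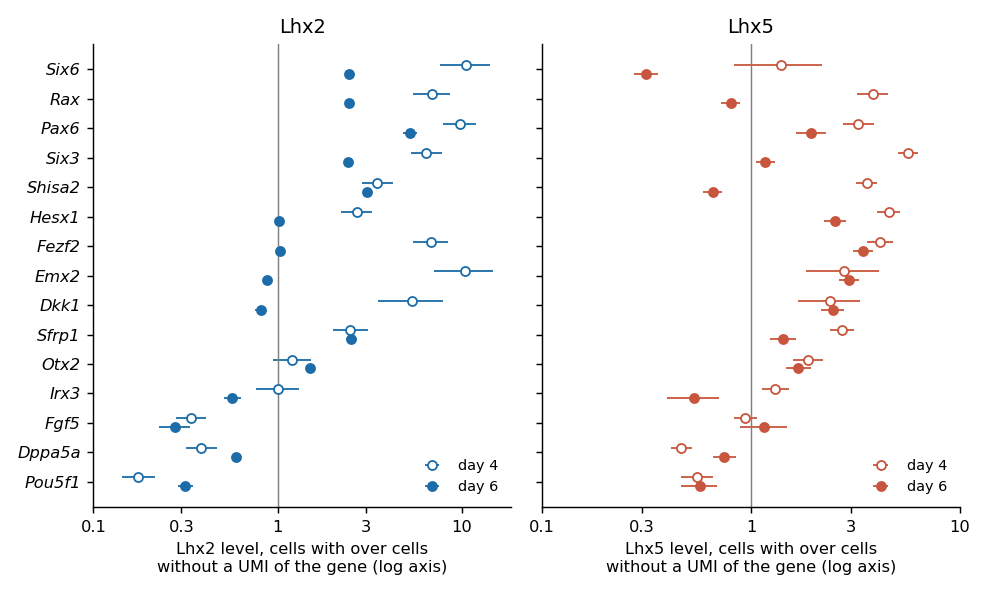
Level of Lhx2 (left) and Lhx5 (right) in cells with a UMI of the named gene over cells without one, on a log axis, with open circles for the day 4 library, filled circles for the day 6 library and 95% counting intervals as bars. Lhx5 lies above 1 for Rax (3.83) and Six3 (5.64) on day 4 and near 1 on day 6 (0.798 and 1.17), while Six6 goes from 1.39 to 0.315.

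On day 6 Lhx2 and Lhx5 differed in several of the genes with which they were high. Lhx5 was at 7.19 CPM in cells with Six6 against 22.9 CPM in those without (ratio 0.315, 0.275 to 0.360). It was higher in cells with Fezf2 (32.2 against 9.38 CPM, ratio 3.43), with the dorsal forebrain ligand Wnt8b (40.4 against 12.3 CPM, 3.30), with the cortical factor Emx2 (35.1 against 11.9 CPM, 2.95), with Barhl2 (42.3 against 15.4 CPM, 2.74), a diencephalic factor, and with the Wnt antagonist Dkk1 (33.9 against 13.8 CPM, 2.45). Hesx1 kept a ratio over 1.5 for Lhx5 on both days, at 2.52 on day 6. Lhx2 was higher in cells with Six6 (169 against 69.7 CPM), Rax (156 against 64.2 CPM) and Pax6 (137 against 26.2 CPM), and lower in cells with Wnt8b (58.8 against 120.9 CPM) and in cells with the midbrain genes Wnt1 (28.6 against 115 CPM) and En1 (19.8 against 114 CPM). Both genes were higher in cells with Pax6, where Lhx5 was at 18.0 against 9.31 CPM (1.93, 1.65 to 2.27), and in cells with Otx2, where Lhx2 was at 123 against 82.3 CPM and Lhx5 at 18.0 against 10.7 CPM (1.68, 1.46 to 1.93). In the 80 cells with En1, Lhx5 was also lower, with 4 UMIs in all or 3.45 CPM (0.939 to 8.82). Of the 25 partner genes, 9 on day 4 and 2 on day 6 were found in under 50 cells and gave no ratio.

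Cells of day 6 were then split by which of Six6, Fezf2 and Wnt8b had a UMI. Lhx2 was at 174 CPM in the 2201 cells with Six6 alone (169 to 179), 113 CPM in the 882 cells with Fezf2 alone (107 to 119) and 30.9 CPM in the 340 cells with Wnt8b alone (26.0 to 36.5). Lhx5 was at 4.71 CPM (3.95 to 5.56), 35.0 CPM (31.7 to 38.6) and 32.5 CPM (27.5 to 38.2) in the same groups. Lhx2 thus stepped down from Six6 to Fezf2 to Wnt8b cells with no overlap of intervals, whereas Lhx5 was low in Six6 cells and at like levels in the other two. For Lhx2, mixed cells fell between the single-gene groups, with 158 CPM in the 512 cells with Six6 and Fezf2 and 65.6 CPM in the 390 cells with Fezf2 and Wnt8b. Lhx5 was at 12.8 CPM in the first of these, also between. In the second it was at 49.7 CPM (44.1 to 55.7), above both the Fezf2-only and the Wnt8b-only cells, and the 39 cells with all 3 genes had 42.8 CPM (29.1 to 60.7). The 2227 cells with none of the 3 genes had 58.5 CPM of Lhx2 and 10.4 CPM of Lhx5. These last cells also held 1420 CPM of the pluripotency gene Dppa5a, against 77.7 to 92.8 CPM in the single-gene groups, and the part of pluripotent cells in their low levels was not tested.

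**Figure D2:**
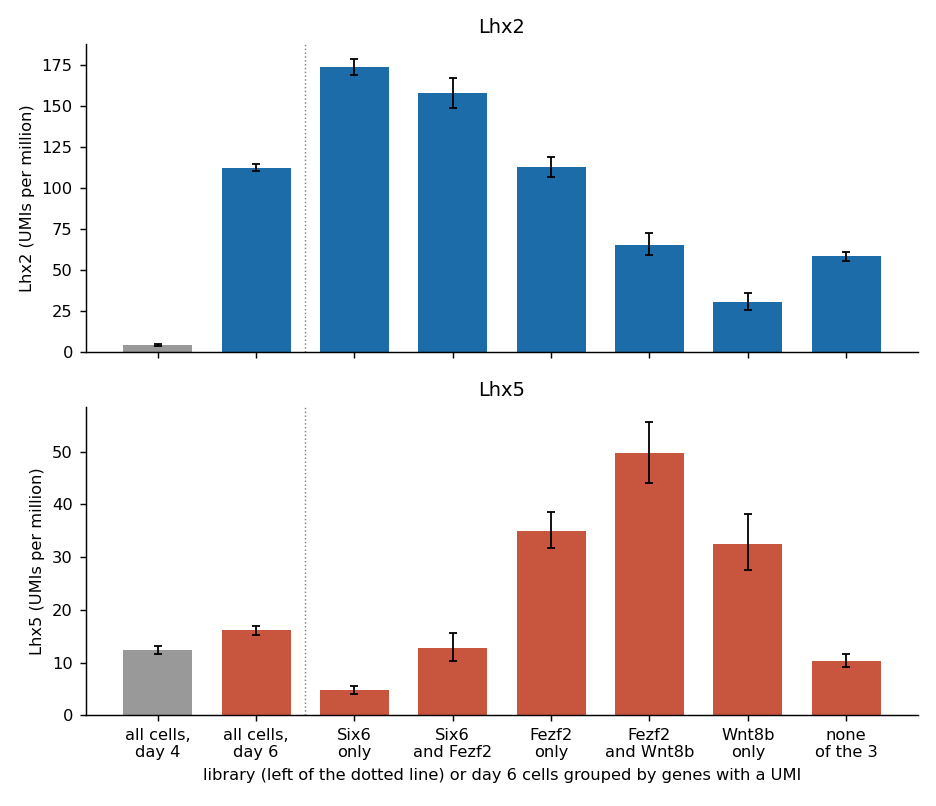
Lhx2 (top) and Lhx5 (bottom) in CPM with 95% counting intervals, for the whole libraries (left of the dotted line) and for day 6 cells grouped by a UMI of Six6, Fezf2 or Wnt8b. Lhx2 declines from 174 CPM in Six6-only to 30.9 CPM in Wnt8b-only cells, while Lhx5 is lowest in Six6-only cells at 4.71 CPM.

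Apart from Lhx5 between Fezf2 and Wnt8b cells, the ratios between these groups were past the size limit, as those of few genes were. For Lhx2 the Six6 cells stood 1.55-fold over the Fezf2 cells (1.45 to 1.64), and 1.87% of 6966 genes were called higher in that comparison. They stood 5.62-fold over the Wnt8b cells (4.76 to 6.70), where 2.66% of 7055 genes were called higher. The Fezf2 cells stood 3.64-fold over the Wnt8b cells (3.06 to 4.36), where 2.02% of 7039 genes were called higher. Lhx2 was therefore called higher in 3 of 3 pairs, but the first of these ratios fell under the size limit as a mean over cells (1.49) and with overlapping groups (1.47). With overlapping groups the other ratios of Lhx2 were 2.87 and 1.95, and with groups from thinned cells 3.21 and 2.10. For Lhx5 the ratio of Six6 over Fezf2 cells was 0.134 (0.110 to 0.164), with 2.41% of genes called lower, and that of Six6 over Wnt8b cells was 0.145 (0.114 to 0.184), with 3.44% called lower. Fezf2 over Wnt8b cells gave 1.08 (0.891 to 1.31) for Lhx5, within the limits, beside 2.02% of genes called higher and 2.43% lower in that pair. The first of the Lhx5 ratios was 0.223 with overlapping groups and 0.0825 with groups by at least 2 UMIs, and the second 0.0928 with at least 2 UMIs. Restricting the groups to the optic vesicle-like cluster described further on gave 1.55, 5.55 and 3.59 for Lhx2 and 0.128, 0.138 and 1.08 for Lhx5. That cluster holds both Six6-led and Wnt8b-led cells.

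The levels moved in steps with the number of UMIs of each gene. In cells with 0, 1, 2 and at least 3 Six6 UMIs, Lhx2 was at 69.7, 147, 165 and 180 CPM and Lhx5 at 22.9, 14.5, 6.28 and 3.93 CPM. With Wnt8b the order was turned, at 121, 73.0, 46.2 and 40.2 CPM of Lhx2 and 12.3, 37.6, 42.6 and 44.4 CPM of Lhx5. With Fezf2, Lhx5 went from 9.38 to 25.1, 39.5 and 40.6 CPM, whereas Lhx2 stayed between 105 and 119 CPM. From 0 to 1 UMI of Six6 or Wnt8b the counting intervals of both genes stood apart, while from 2 to at least 3 UMIs they overlapped for every pair of genes.

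**Figure D3:**
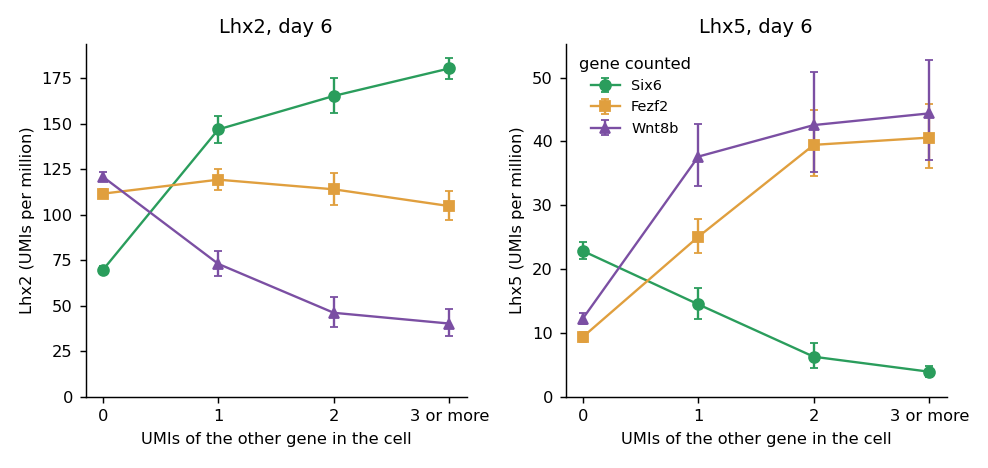
Lhx2 (left) and Lhx5 (right) in CPM on day 6 against the number of UMIs of Six6 (circles), Fezf2 (squares) or Wnt8b (triangles) in the cell, with 95% counting intervals. Lhx2 climbs from 69.7 to 180 CPM with Six6 and drops from 121 to 40.2 CPM with Wnt8b, and Lhx5 does the opposite for both.

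Rax did not separate the members as Six6 did. On day 6, cells with 3 or more Rax UMIs had 168 CPM of Lhx2 against 64.2 CPM in cells with none, but 12.4 CPM of Lhx5 against 18.0 CPM. Among the 1151 cells with Rax and no Six6 UMI, Lhx5 was at 28.7 CPM (26.1 to 31.5), and among the 2171 cells with both it was at 6.92 CPM (6.01 to 7.92). The 631 cells with Six6 and no Rax UMI had 8.29 CPM. Cells with Rax therefore held low Lhx5 where Six6 was also detected and more where it was not. Lhx2 was high in all 3 classes, at 125, 172 and 153 CPM, against 44.4 CPM in cells with neither. On day 4 the 260 cells with Rax and no Six6 held 43.5 CPM of Lhx5, and the 12 cells with both held 5 UMIs of Lhx5, or 28.8 CPM (9.33 to 67.1).

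Detection of both genes in 1 cell also differed by day. On day 4, 26 of the 158 cells with Lhx2 also had Lhx5 (16.5%, 11.0 to 23.2), against 4.83% of cells without Lhx2 (4.36 to 5.33), a ratio of 3.41 (2.20 to 5.07). On day 6, 168 of the 2523 cells with Lhx2 had Lhx5 (6.66%, 5.72 to 7.70) against 6.80% of those without (6.05 to 7.61), a ratio of 0.979 (0.804 to 1.19). Cells with both numbered 3.25 times the product of the 2 shares on day 4 and 0.987 times on day 6. Enrichment of Lhx5 among Lhx2 cells was thus seen on day 4 and not detectable in the day 6 library as a whole.

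The day 6 value depended on which cells were counted. Within the optic vesicle-like cluster Lhx5 was found in 6.68% of cells with Lhx2 and 8.61% of cells without, a ratio of 0.776 (0.632 to 0.9504). Of the 5282 cells of that cluster, 2790 fell in the Six6-led and 2464 in the Wnt8b-led cluster of a finer clustering, in which the ratios were 0.640 and 1.32, so that 0.776 spans unlike cells. Within cells with Six3 the ratio was 0.687 (0.528 to 0.890) on day 6 and 1.56 (0.917 to 2.51) on day 4. Within cells with Rax it was 0.749 (0.563 to 0.995) on day 6 and 2.16 (0.860 to 4.79) on day 4. For Six3 the intervals of the 2 days did not overlap, and for Rax they did. Within the Six6, Fezf2 and Wnt8b groups the day 6 ratios were 0.589 (0.301 to 1.13), 1.02 (0.705 to 1.47) and 1.07 (0.367 to 2.55), so that inside each of these 3 groups an excess or a lack was not detectable at this depth. Among the 2227 cells with none of the 3 genes, which hold the pluripotent cells, Lhx5 was found in 9.92% of cells with Lhx2 and 3.61% of those without, a ratio of 2.74 (1.85 to 4.06). Leaving naive pluripotent-like, endoderm-like and neural crest-like cells out, with primed epiblast-like cells kept, gave 2.80 (1.79 to 4.20) on day 4 and 0.812 (0.666 to 0.988) on day 6.

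**Figure D4:**
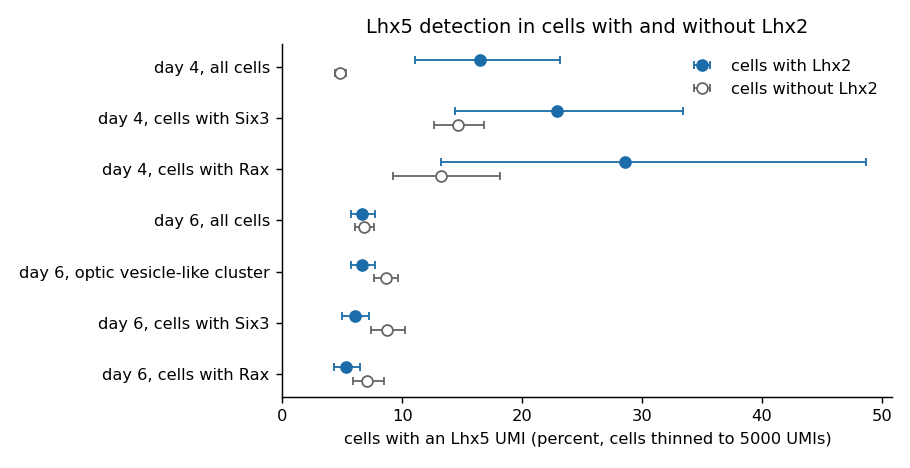
Percent of cells with an Lhx5 UMI among cells with an Lhx2 UMI (filled) and without one (open), after thinning to 5000 UMIs, with 95% Clopper-Pearson intervals, for all cells and for named classes of each day. The filled point lies to the right on day 4 (16.5% against 4.83%) and to the left in the day 6 optic vesicle-like cluster (6.68% against 8.61%).

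Cells with Lhx5 alone and cells with Lhx2 alone on day 6 differed in forebrain and eye genes. Of the kept day 6 cells, 347 had a UMI of Lhx5 alone, 3366 of Lhx2 alone, 578 of both and 2350 of neither. Of 7003 genes at 10 CPM or more in 1 of the first 2 groups, 153 (2.18%) were higher in Lhx5-only cells and 151 (2.16%) lower. These became 73 and 77 with a floor of 20 CPM, and 231 were higher with groups from thinned cells. Of 18 dorsal forebrain and hem genes, 6 could be judged, and 5 of these were higher. All 6 reached 10 CPM in Lhx5-only cells alone, so none could have been called lower. Wnt8b was at 73.8 CPM against 8.01 CPM (9.22-fold, 7.94 to 10.7), Rspo3, which enhances Wnt signalling, at 43.6 against 3.62 CPM (12.0-fold, 9.77 to 14.9), and Zic1, a dorsal neural factor, at 29.0 against 3.53 CPM (8.23-fold, 6.51 to 10.4). The neural factors Rfx4 and Pax3 were 7.75-fold and 7.04-fold higher, but they too reached 10 CPM in Lhx5-only cells alone and could not have been called lower. The median log2 ratio of those 6 genes, which the floor also pushed upward, was 2.52, beside -0.02 over all genes tested.

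Eye genes lay on the other side. Of 7 judged eye field factors, 4 were lower in Lhx5-only cells and none higher. Six6 was at 12.9 CPM against 178 CPM (ratio 0.0723, 0.0554 to 0.0928), Rax at 35.9 against 135 CPM (0.267), Six3 at 47.5 against 119 CPM (0.398) and Pax6 at 196 against 334 CPM (0.585). Otx2, Hesx1 and Nr2e1 were within the limits, at 0.906, 1.31 and 0.819. Of 12 optic vesicle regulators, 6 could be judged. Mitf (0.1995), the pigment epithelium regulator, Aldh1a3 (0.168), which makes retinoic acid, and Pax2 (0.401) were lower, while Otx1 was higher (3.45). The 3 lower genes reached 10 CPM in Lhx2-only cells alone. Otx1 reached it in Lhx5-only cells alone, so the floor set the direction of these calls. The low end of the whole gene table held further Col9a1 (0.103), Nlgn1 (0.158), Mab21l2 (0.175), an eye gene, Edaradd (0.224), Meis1 (0.224) and Shisa2 (0.229). Of these, Col9a1, Nlgn1, Mab21l2 and Edaradd reached 10 CPM in Lhx2-only cells alone, so they could not have been called higher. The median log2 ratio was -0.77 for the eye field factors and -0.89 for the optic vesicle regulators. The second value rests on genes most of which reached the 10 CPM floor in 1 group alone.

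Rostral forebrain factors and Wnt feedback genes were less uniform. Among rostral factors, Emx2 (3.26), Sp8 (2.20) and Fezf2 (2.10) were higher, and Dmrta2 (1.19) and Fezf1 (0.696) were within the limits. Of 7 Wnt antagonists and feedback genes, Dkk1 (46.7 against 11.1 CPM, 4.21-fold), Axin2 (2.26) and Frzb (2.16) were higher, while Sfrp2 (0.592) and Shisa2 (43.1 against 188 CPM) were lower. Among diencephalic factors Foxb1 was 4.51-fold higher and Tcf7l2 was within the limits. Barhl2 stood at 9.54 against 0.821 CPM, just under the 10 CPM floor. Axin2 and Foxb1 reached that floor in Lhx5-only cells alone.

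**Figure D5:**
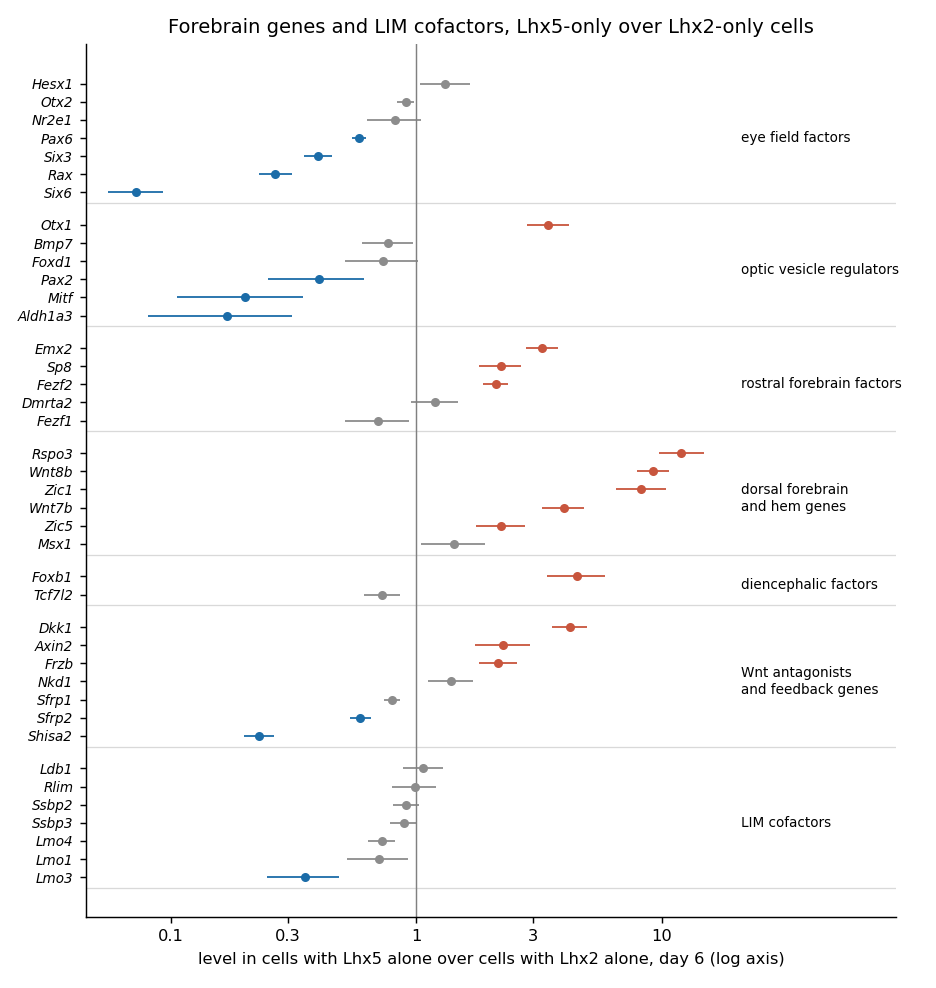
Level in day 6 cells with Lhx5 alone over cells with Lhx2 alone, on a log axis with 95% counting intervals, for genes of the lists at 10 CPM or more in either group, with red for higher, blue for lower and grey for within the size limit. Wnt8b, Rspo3 and Zic1 lie at 8.23 to 12.0, and Six6 lies at 0.0723.

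Some of the highest ratios came from very few cells. The endoderm gene Afp (333-fold) had all 107 of its UMIs in Lhx5-only cells in 1 cell, and Apoa2 (224-fold) had 141 of 144 in 1 cell. Ttr had 109 of 120, Apoa1 61 of 66 and the germ cell and pluripotency gene Dppa3 43 of 49 in 1 cell each. Some markers of other cell types were also higher in Lhx5-only cells, beside 2.18% of all judged genes. These were 2 of 2 judged naive pluripotent markers, 3 of 4 of endoderm, 3 of 3 of surface ectoderm and 1 of 3 of primed epiblast. Only 2 of 9 naive markers could be judged. Dppa3, Afp, Dab2, Lama1, Epcam and Pou5f1 reached 10 CPM in Lhx5-only cells alone, so they could not have been called lower. Among the markers called higher, Dppa5a was at 208 against 64.3 CPM (3.24-fold), Lama1 at 21.6 against 9.32 CPM (2.31-fold), Krt18 at 76.3 against 42.4 CPM (1.799-fold) and Pou5f1 at 11.2 against 5.06 CPM (2.21-fold). Rspo3, in contrast to Afp and Apoa2, was found in 74 Lhx5-only cells, Wnt8b in 159 and Zic1 in 74. Within the optic vesicle-like cluster, with 311 Lhx5-only and 3135 Lhx2-only cells, Afp and Apoa2 had no UMI in Lhx5-only cells, whereas Wnt8b kept a ratio of 9.46, Rspo3 of 12.0, Zic1 of 7.96 and Six6 of 0.0736. There 143 genes were called higher and 169 lower.

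Cells with both genes resembled the Lhx5-only cells in some genes and stood between in others. Fezf2 was found in 34.5% of cells with both, 31.1% of Lhx5-only cells and 14.1% of Lhx2-only cells, and Six6 in 11.9%, 11.4% and 45.6%. Wnt8b was found in 10.7% of cells with both, between 21.8% and 3.52%. Hesx1 was found in 16.7% of cells with both, above the 6.79% of Lhx5-only and the 5.35% of Lhx2-only cells. These shares rest on 168, 280 and 2355 thinned cells with median depths of 13051.5, 14050.5 and 12308 UMIs.

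Joint clustering, from which both members and the gene lists were held out, gave 5 clusters. The optic vesicle-like cluster, named from Rax, Six6, Six3, Pax6 and Mab21l2, held 5282 day 6 and 92 day 4 cells. The primed epiblast-like cluster held 6732 day 4 and 490 day 6 cells, the naive pluripotent-like cluster 1273 and 538, the endoderm-like cluster 50 and 162 and the neural crest-like cluster 0 and 169. On day 6 Lhx2 was at 133 CPM in optic vesicle-like, 76.0 CPM in primed epiblast-like, 16.9 CPM in endoderm-like, 9.99 CPM in neural crest-like and 7.46 CPM in naive pluripotent-like cells. The first 2 levels stood clear of each other and of the rest, while the intervals of endoderm-like (11.7 to 23.6) and neural crest-like cells (6.47 to 14.8) overlapped. Lhx5 followed with 18.6, 16.2, 4.47, 0.799 and 1.18 CPM for these clusters, with overlapping intervals for the first 2. The 490 primed epiblast-like cells of day 6 also held 890 Pax6, 303 Rax and 227 Six6 UMIs. On day 4 Lhx5 was at 14.6 CPM in primed epiblast-like and 1.01 CPM in naive pluripotent-like cells, and Lhx2 at 4.93 and 0.805 CPM. The cluster named optic vesicle-like exceeded the other day 6 cells 4.52-fold in Lhx2 (4.13 to 4.95) and 3.09-fold in Lhx5 (2.53 to 3.82), in a comparison where 12.5% of 7454 genes were called higher and 12.6% lower. It held 2790 cells of a Six6-led and 2464 of a Wnt8b-led finer cluster. Lhx5 was at 4.48 CPM in the Six6-led and 33.6 CPM in the Wnt8b-led one, so its excess did not hold for Six6-led cells. With sample left out of the clustering covariates, the largest day 6 cluster exceeded the rest 13.1-fold in Lhx2 and 9.55-fold in Lhx5.

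A finer clustering divided both days along the same line as the marker genes. The day 6 cells fell into a cluster of 2815 cells led by Six6 and Col9a1, with 178 CPM of Lhx2 and 4.48 CPM of Lhx5, and a cluster of 2479 cells led by Wnt8b, Acta2, Emx2 and Fezf2, with 84.5 CPM of Lhx2 and 33.6 CPM of Lhx5. The larger of them had less Lhx5 than the other day 6 cells, at a ratio of 0.185. Inside the Wnt8b-led cluster Lhx5 was found in 16.5% of cells with Lhx2 and 12.5% of those without (ratio 1.32, 1.05 to 1.65), and inside the Six6-led cluster in 2.001% and 3.125% (0.640, 0.387 to 1.05). On day 4, 3987 cells led by Hesx1 had 22.2 CPM of Lhx5 and 7.55 CPM of Lhx2, and 2228 cells led by Fgf5 had 3.80 and 0.9496 CPM.

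The naive pluripotent-like cells were taken as a background for both genes, on the assumption that they lack them. Whether their UMIs came from free RNA, doublets or low expression was not tested. On day 6 Lhx2 was found in 2.79% of them (median depth 13734.5 UMIs) against 44.8% of optic vesicle-like cells (median 12626), and Lhx5 in 0.743% against 7.74%. They held 57 Lhx2 and 9 Lhx5 UMIs, or 6.33 Lhx2 UMIs per Lhx5 UMI, beside 6.99 in the library as a whole. The same quotient on day 6 was 3.78 in endoderm-like and 12.5 in neural crest-like cells. On day 4 it was 0.8 in naive pluripotent-like cells, beside 0.361 in the library. In cells with Six6 alone, Lhx5 was found in 1.91% (1.38 to 2.57), with an interval that overlapped that of the pluripotent-like cells (0.203 to 1.89), although its CPM of 4.71 stood above their 1.18 CPM (0.539 to 2.24). Lhx5 in Six6 cells was therefore above this background by level, while by share of cells the intervals overlapped.

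Over the 9 cluster and day groups with at least 50 cells, the genes whose log2 level ran most like Lhx2 were Pax6 (Pearson r 0.985), Rax (0.984), Crb2 (0.980), Fzd1 (0.973) and Uhrf2 (0.969). For Lhx5 they were Plch1 (0.972), Shisa2 (0.969), Six3 (0.956), Zfp811 (0.935) and Gm26825 (0.924). Lhx2 and Lhx5 had an r of 0.719 with each other. The groups share 2 libraries, so these values describe them and carry no test. Shisa2 and Six3 ran with Lhx5 over the clusters, whereas within the day 6 library Lhx5 was lower in cells with Shisa2 than without (13.3 against 20.3 CPM).

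No other member of the LIM homeobox family reached the 10 CPM floor. Lmx1b, known for the midbrain and limb, had 611 UMIs on day 4 and 71 on day 6, or 6.19 and 0.809 CPM, and its relative Lmx1a went from 0.243 to 1.79 CPM. Lhx1, Lhx3, Lhx4, Lhx6, Lhx8, Lhx9, Isl1 and Isl2 stayed under 1 CPM in both libraries, with 2 to 38 UMIs each. Of the cofactors that LIM proteins bind, 5 of 10 could be judged and 2 were higher on day 6. Ssbp2 stood at 26.3 and 60.6 CPM (2.302-fold) and Lmo4, a LIM-only protein that competes for Ldb1, at 36.1 and 70.1 CPM (1.94-fold). Ldb1, the adaptor of both members, differed little, at 19.6 and 23.8 CPM (ratio 1.22). Lmo3 had 16 UMIs on day 4 and 1427 on day 6, or 0.162 and 16.3 CPM, under the floor for the mean of the days. Within day 6, 1 cofactor of 7 was called lower in Lhx5-only cells, Lmo3 at 7.88 against 22.5 CPM (0.351, 0.247 to 0.485). Lmo3 reached 10 CPM in Lhx2-only cells alone, so it could not have been called higher. Ldb1 was at 25.7 CPM in Lhx5-only and 24.1 CPM in Lhx2-only cells.

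Of the Wnt antagonists and feedback genes, 5 of 5 judged were higher on day 6, among them Sfrp1 (70.6 and 173 CPM), Sfrp2 (51.5 and 117 CPM), Shisa2 (37.3 and 127 CPM) and Frzb (5.82 and 19.2 CPM). Six3, Rax, Pax6 and Six6, 4 of 6 eye field factors, were higher, and Hesx1 was lower. In the other lists 1 of 1 optic vesicle regulator, 2 of 2 rostral forebrain factors and 1 of 2 diencephalic factors were higher, beside the 13.3% of all genes called higher and the 6.28% called lower. The other diencephalic factor, Irx3, was lower, at 14.0 and 6.72 CPM (ratio 0.479). Irx3 passed the floor for the mean of the days through day 4, so it could not have been called higher. Bmp7, Emx2, Fezf2, Frzb, Nkd1, Rax, Pax6 and Six6 were under 10 CPM on day 4. They passed the floor for the mean of the days through day 6, so none of them could have been called lower. Dorsal forebrain and hem genes went both ways: Zic5 was lower, at 61.5 and 12.9 CPM, while Wnt8b (0.274 and 17.5 CPM), Wnt7b (0.882 and 11.2 CPM), Rspo3 (0.953 and 10.2 CPM) and Zic1 (0.355 and 7.92 CPM) had more UMIs on day 6 but stayed under the floor for the mean of the days. The median log2 ratios of 1.72 for the Wnt antagonists and feedback genes and 3.29 for the eye field factors stood beside 0.14 over all genes tested. These medians rest on the same floor.

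Antisense transcripts lay at both loci. Gm27197, inside Lhx2 on the minus strand (chr2:38347357-38348316) and sharing no exon base with it, had 2 UMIs on day 4 and 87 on day 6. Gm27199 (chr5:120419659-120431767, minus strand) overlaps the first 69 bases of Lhx5 and had 39 and 80 UMIs. Cells with a Gm27199 UMI held more Lhx5 than the rest on both days, at 65.1 against 12.1 CPM on day 4 (39 cells, 5.39-fold, 3.80 to 7.44) and 50.9 against 15.7 CPM on day 6 (77 cells, 3.25-fold, 2.42 to 4.27). The 86 day 6 cells with Gm27197 held 172 CPM of Lhx2 against 112 CPM (1.54-fold, 1.35 to 1.77). Gm27199 was found in 3 of the 2201 Six6-only, 23 of the 882 Fezf2-only and 6 of the 340 Wnt8b-only cells, at 0.103, 1.95 and 1.54 CPM. Gm27197 was found in 51, 10 and 3 cells of these groups, at 1.75, 0.848 and 0.658 CPM with overlapping intervals. Gm13584, also antisense to Lhx2, had no UMI in either library.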

How the data were processed

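Values are UMI counts by gene and barcode, deposited without normalization, from reads that the authors aligned to mm10. Cell Ranger 2.0.1 and Seurat 2.3.4 are named in the submitters' processing notes, later versions in the study's methods, and the files hold fewer barcodes (9114 and 7446) than the cells the study states. Both list 27998 genes.

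Cells with 500 to 5000 genes, 500 to 26000 UMIs, at most 10% mitochondrial, at least 20% ribosomal protein and at most 0.5% haemoglobin counts were kept (89.4% and 89.2% of barcodes). Of the deposited barcodes, 91 occurred in both libraries. Scrublet called 4 and 1 cells, so it did not work at this loading and doublets were in effect left in. As an alternative, the top 5% of scores were left out. No correction for free RNA was made.

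UMIs were summed per group. Intervals at 95% are Poisson for levels, Clopper-Pearson for shares and conditional binomial for ratios, all exact. A size call needed 1.5-fold and a mean of 10 CPM between days, or 10 CPM in 1 of the 2 groups within a day. With 1 library per day, no p-value or standard error was computed. Thinning to 5000 UMIs left out 182 day 4 cells and 0 day 6 cells. A count of 0 allows up to 3 counts. Counts per cell were scaled to 10000 and log-transformed, 99 list genes were held out of 3000 variable genes, sample, genes per cell, mitochondrial share and cell cycle scores were regressed out, and Leiden clusters at resolution 0.2 (finer: 0.4) were made from 50 components with 20 neighbours. A cluster took a name with at least 3 markers at 2-fold and 10% of its cells, and these rebuilt names may differ from the study's cell types. Likeness is Pearson r of log2(CPM + 5).

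The members, lists and comparisons were chosen with earlier results of these data known. Named are both members, 25 partner genes, from each list the 4 judged genes (or fewer) whose levels differed most between days, the whole LIM family and the 10 genes at each end of the comparison of Lhx5-only with Lhx2-only cells; gene models without a name and haemoglobin, mitochondrial and ribosomal protein genes were passed over. The day ratios within partner classes, the classes by Rax and Six6, day 4 levels by UMI number, the co-detection subsets, the antisense genes, the 10 genes of the day 4 comparison, the cofactors and list members named beyond this rule and the restriction to the optic vesicle-like cluster were chosen after values were seen. Some list genes are not reported here. The interval code was tested on simulated data. Python 3.11.15, numpy 2.4.6, scipy 1.17.1, pandas 2.3.3, scanpy 1.11.5 and matplotlib 3.10.9 were used.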

Additional observations from a re-analysis of the deposited data

How the results depend on the processing

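Of 109 alternatives over 14 results, 88 stayed within the spread allowed, 20 moved a value and 1 turned its direction; of these, 13 were chosen after seeing the data. The Lhx2 day ratio was 22.4 with all barcodes. With all barcodes, overlapping groups, groups by at least 2 UMIs and groups from thinned cells, Lhx2 in Six6 over Wnt8b cells was 4.73, 2.87, 8.25 and 3.21, and in Fezf2 over Wnt8b cells 3.01, 1.95, 5.06 and 2.10. Lhx5 in Six6 over Fezf2 cells was 0.223 with overlapping groups and 0.0825 with at least 2 UMIs, in Six6 over Wnt8b cells 0.0928 with at least 2 UMIs, and in Fezf2 over Wnt8b cells 0.797 with overlapping groups. The day 6 detection ratio was 0.776 in the optic vesicle-like cluster alone. The largest day 6 cluster against the other cells gave 2.70 for Lhx2 and 0.185 for Lhx5 at resolution 0.4, where that cluster is the Six6-led one, and 13.1 and 9.55 with sample left out of the covariates. The numbers of genes higher and lower in Lhx5-only cells were 73 and 77 with a floor of 20 CPM, where fewer genes are judged, and 231 higher with groups from thinned cells. Where no construction is named, the cause was not tested. No paired analysis was possible because each day is 1 library. Cells of 3 pooled experiments, 1 stem cell line and 1 library per day limit every comparison between days, and low counts limit Lhx5 shares in small groups.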
